A study of Drosophila mojavensis with 95 samples.

Results

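Punta Prieta lies in Baja California, and its flies were followed through 18 h of desiccation after being reared on agria cactus. The arrays were chosen by their title codes, which name population, diet and hours, and they were 13 of the 95 in the study: 4 at 0 h, 4 at 9 h and 5 at 18 h. The study measured whole-body RNA of Drosophila mojavensis, a cactus-breeding fruit fly of the North American deserts, on one-colour Cy3 NimbleGen 12-plex arrays. It covered 4 populations, media made from 2 cacti (agria and organ pipe) and 3 times. All 13 arrays were of wild-type virgin females raised on agria medium. By their labels they differed in the hours of desiccation, and a deposited note lists 1 of them, replicate 4 at 0 h, as belonging to a later order of arrays. The 12 Punta Prieta arrays of flies raised on organ pipe medium (4 at each of 0, 9 and 18 h) and the 36 agria arrays of the other 3 populations (San Quintin, also in Baja California, and Punta Onah and Organ Pipe National Monument) served for comparison, and these flies too were wild-type virgin females.

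Small insects hold little water and lose it through the cuticle, the spiracles and excretion. During desiccation they can reduce water loss by sealing the cuticle with hydrocarbons, by closing the spiracles and by lowering urine output from the Malpighian tubules, and they draw on carbohydrate and lipid stores as they stop feeding. Drosophila mojavensis breeds in necrotic cactus tissue and is known for its resistance to dry air. Agria cactus is the usual host on the Baja California peninsula and organ pipe cactus the usual host on the Sonoran mainland.

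No flies held for 9 or 18 h without desiccation were among the arrays, so desiccation, hours without food and hour of the day cannot be told apart. The labels call the arrays of a group replicates and do not say whether these came from separate cultures or extractions, so the p-values measure only the spread between arrays, which may be technical. In whole bodies, fewer cells of a type and less RNA per cell cannot be told apart. The table names its 14528 transcripts by FlyBase identifier, and no gene name was at hand for any of them, so nothing is said here of their function. Levels are log2 values, and a log2 change is the later mean minus the earlier one.

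The 13 arrays were alike in overall level. Array medians ran from 10.17 to 10.39, against 10.17 to 10.40 over all 95 arrays. Each array correlated at 0.973 to 0.996 over transcripts with the mean of the rest of its group, against 0.951 to 0.997 over all arrays. The SD of the transcript levels within an array averaged 1.93 ± 0.07 at 0 h, 1.95 ± 0.06 at 9 h and 1.92 ± 0.04 at 18 h (SD, n = 4, 4 and 5). It did not differ detectably between times in exact permutation tests (2-sided, adjusted p over 3 pairs of times = 0.814 for 9 h and 0 h, 0.814 for 18 h and 9 h and 0.905 for 18 h and 0 h). The median transcript had a within-group SD of 0.191 at 0 h, 0.183 at 9 h and 0.194 at 18 h.

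The arrays were checked against their labels with profiles of the 3 times and the 4 populations, each built over 200 transcripts from the 82 arrays outside this group. All 13 arrays correlated positively with the Punta Prieta profile (r = 0.62 to 0.90 over 200 transcripts), and for 12 of them it was the nearest. The exception was replicate 4 at 9 h, with r = 0.69 for Punta Prieta and 0.73 for San Quintin. The 4 arrays at 9 h were nearest the 9 h profile (r = 0.86 to 0.92). The 5 arrays at 18 h were nearest the 18 h profile, but at r = 0.88, 0.94 and 0.83 for replicates 1 to 3 and only 0.35 and 0.39 for replicates 4 and 5.

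The 0 h arrays did not stand clearly nearest their own time. Their correlation with the 0 h profile was 0.64, 0.67, 0.58 and 0.50, and with the 9 h profile 0.73, 0.66, 0.73 and 0.72. Replicates 1, 3 and 4 therefore lay nearer the 9 h than the 0 h profile, and all lay far from the 18 h profile (r = -0.87 to -0.76). In the Punta Prieta flies raised on organ pipe medium, replicates 1 and 2 at 0 h behaved likewise (r = 0.68 and 0.59 with the 0 h profile, 0.74 and 0.75 with the 9 h profile), whereas replicates 3 and 4 were nearest the 0 h profile (r = 0.95 and 0.81). Replicate 4 of that organ pipe group also went against its population label, with r = 0.79 for Punta Onah and -0.67 for Punta Prieta. Unlike the agria arrays, these organ pipe arrays were among those that formed the profiles and chose their transcripts. Their correlations are therefore not independent of the profiles.

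**Figure D1:**
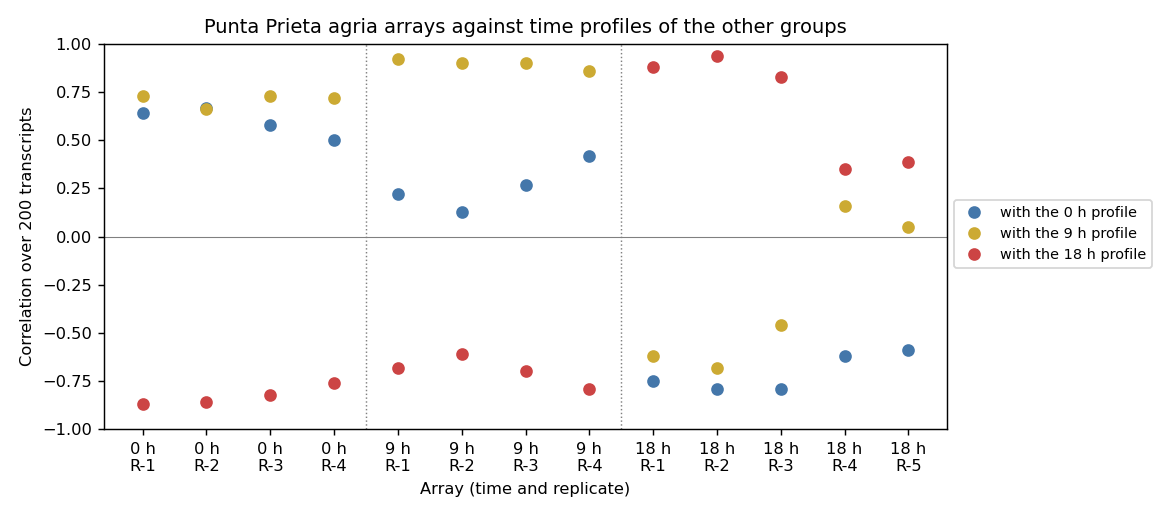
Correlation over 200 transcripts of each of the 13 Punta Prieta agria arrays (x axis) with the 0, 9 and 18 h profiles of the other 82 arrays (y axis, unitless). The 0 h arrays lie as near the 9 h profile as the 0 h profile, and 18 h replicates 4 and 5 lie at 0.35 and 0.39 with the 18 h profile, below the other 3.

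Over the whole course the transcriptome of these flies shifted in both directions. By limma, fitted as 24 group means over all 95 arrays and adjusted by Benjamini-Hochberg over all transcripts, 2256 of 14528 transcripts (15.5%) were called at 18 h over 0 h at an adjusted p under 0.05. Of these, 1186 (8.16% of all) were higher and 1070 (7.37%) lower. A change of 1.5-fold or more was reached by 659, 415 upward and 244 downward. A change of 2-fold or more was reached by 154, of which 61 rose and 93 fell. The count was 985, 533 higher and 452 lower, with the spread estimated from the 13 arrays alone, and 4092, 1694 higher and 2398 lower, with limma's array weights. With the first component of the deviations from the group means as a covariate it was 3299, 1518 higher and 1781 lower. That component is taken from the same deviations that make up the spread. Here and below it therefore narrows the spread by construction and leaves the mean changes as they were. The median absolute change of the called transcripts was 0.44, against 0.14 over all transcripts.

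Calls were rare among dim transcripts. With the transcripts divided into 5 equal classes by mean level over all arrays, 1.34% of the dimmest class was called at 18 h over 0 h and 7.78% of the next, against 22.4%, 22.4% and 23.7% in the 3 brightest. Detection calls and background signals were not used here, so it is not known which dim transcripts stood clear of the background.

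The 2 largest rises among transcripts whose arrays did not overlap were FBtr0165571 and FBtr0175044. FBtr0175044 had levels of 9.46, 9.54, 9.92 and 9.24 at 0 h, 10.76, 11.06, 10.64 and 10.82 at 9 h, and 12.41, 12.46, 12.40, 11.87 and 11.91 at 18 h. The 3 times did not overlap, and each step was upward: the log2 change was 1.28 ± 0.22 at 9 h over 0 h (SE, limma adjusted p = 0.000106), 1.39 ± 0.21 at 18 h over 9 h (adjusted p = 1.14e-06) and 2.68 ± 0.21 at 18 h over 0 h (adjusted p = 1.75e-16), a 6.39-fold rise over the course. It was called higher at 18 h over 0 h in the organ pipe flies of the same population too (2.36 ± 0.22, limma adjusted p = 3.71e-13) and in the agria flies of Punta Onah (1.88 ± 0.22), Organ Pipe National Monument (2.79 ± 0.21) and San Quintin (3.47 ± 0.22).

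FBtr0165571 had levels of 7.93, 8.23, 7.80 and 8.01 at 0 h, 9.43, 9.33, 8.32 and 9.76 at 9 h, and 11.33, 11.86, 10.76, 9.51 and 10.30 at 18 h. All 9 later arrays lay above all 0 h arrays, while replicate 4 at 18 h lay below the highest 9 h array. The log2 change at 18 h over 0 h was 2.76 ± 0.34 (SE, limma adjusted p = 1.52e-09), 6.77-fold, with 1.21 ± 0.36 at 9 h over 0 h (adjusted p = 0.0409) and 1.55 ± 0.34 at 18 h over 9 h (adjusted p = 0.00123).

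The 2 largest falls were FBtr0162063 and FBtr0161675. FBtr0162063 had levels of 12.16, 12.53, 12.46 and 12.35 at 0 h, 12.23, 12.33, 12.26 and 11.89 at 9 h, and 7.52, 7.51, 7.78, 9.10 and 8.97 at 18 h. The 0 h and 9 h arrays shared 1 narrow range, the 18 h arrays lay far below it, and replicates 4 and 5 were the highest of the 18 h arrays. The log2 change was -4.20 ± 0.45 at 18 h over 0 h (SE, limma adjusted p = 3.13e-11) and -4.0 ± 0.45 at 18 h over 9 h (adjusted p = 4.74e-10), and -0.20 ± 0.48 at 9 h over 0 h (adjusted p = 0.899).

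FBtr0161675 had levels of 12.49, 13.04, 13.08 and 13.44 at 0 h, 11.71, 12.17, 11.40 and 11.80 at 9 h, and 8.76, 9.00, 8.60, 8.92 and 9.04 at 18 h. The 3 times did not overlap, and the 18 h arrays, replicates 4 and 5 included, agreed within 0.5 of each other. The log2 change was -4.15 ± 0.44 at 18 h over 0 h (SE, limma adjusted p = 1.41e-11) and -2.90 ± 0.44 at 18 h over 9 h (adjusted p = 1.13e-06), and it did not pass the threshold at 9 h over 0 h (-1.24 ± 0.46, adjusted p = 0.154).

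**Figure D2:**
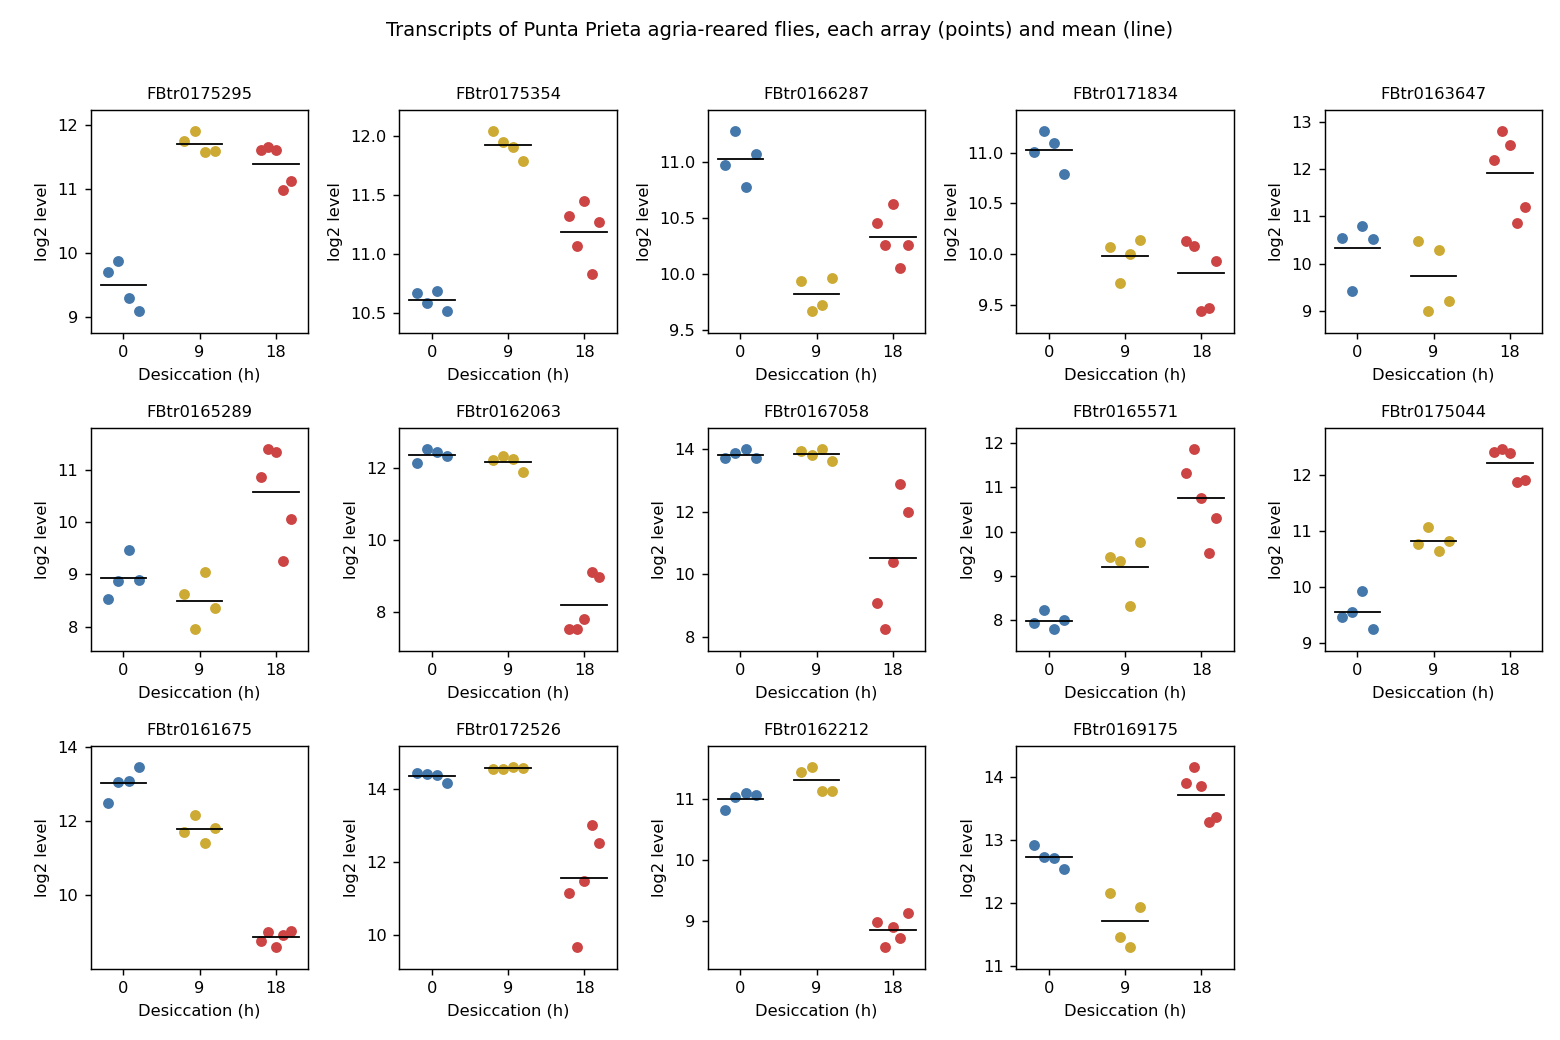
Log2 level (y axis) of 14 transcripts by hours of desiccation (x axis, 0, 9 and 18 h) in Punta Prieta agria flies, with 1 point per array and a line at the group mean. The arrays of FBtr0175044 and FBtr0161675 keep apart at all 3 times, although the FBtr0161675 change at 9 h over 0 h did not pass the threshold, whereas FBtr0162063, FBtr0167058 and FBtr0172526 hold their level to 9 h and drop at 18 h, with replicates 4 and 5 above the other 18 h arrays.

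At 9 h over 0 h most of the called transcripts rose, and their number depended on the fit. Limma called 407 transcripts at 9 h over 0 h (2.8%), 362 of them higher (2.49%) and 45 lower (0.31%). Changes of 1.5-fold or more numbered 154, 128 upward and 26 downward, and 15 reached 2-fold. The arrays did not overlap for 329 of the 407, against 857 of all 14528 transcripts. The count rested on single arrays: it was 112 without replicate 4 at 0 h, 196 without replicate 4 at 9 h, 269 without replicate 3 at either time, and 598 without replicate 2 at 0 h. Replicate 4 at 0 h is the array of the later order. An estimate of the spread from the 13 arrays alone gave 20 called transcripts, 14 higher and 6 lower. The component covariate gave 1536, 858 higher and 678 lower, and array weights gave 1840, 1132 higher and 708 lower.

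The largest rise was that of FBtr0175295, with levels of 9.71, 9.88, 9.30 and 9.09 at 0 h, 11.76, 11.91, 11.59 and 11.60 at 9 h, and 11.62, 11.66, 11.61, 10.99 and 11.13 at 18 h. All later arrays lay more than 1 log2 unit above all 0 h arrays, and the 9 h and 18 h ranges overlapped. The log2 change at 9 h over 0 h was 2.22 ± 0.23 (SE, limma adjusted p = 1.07e-10), 4.65-fold, and the change at 18 h over 9 h was -0.31 ± 0.22 (adjusted p = 0.413).

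FBtr0175354 had levels of 10.67, 10.59, 10.69 and 10.52 at 0 h, 12.04, 11.95, 11.91 and 11.79 at 9 h, and 11.32, 11.07, 11.45, 10.83 and 11.27 at 18 h. The 3 times did not overlap, with the 18 h arrays between the other two. It rose by 1.31 ± 0.12 at 9 h over 0 h (SE, limma adjusted p = 1.04e-13) and was lower again at 18 h over 9 h (-0.73 ± 0.11, adjusted p = 9.07e-07). The organ pipe flies of Punta Prieta showed nearly the same pair of changes, 1.32 ± 0.12 and -0.77 ± 0.12, and the 9 h over 0 h change was called in each of the other 3 agria populations as well (0.81 to 0.98). The 18 h over 9 h change was called in none of these 3 (Punta Onah 0.007, Organ Pipe National Monument -0.15 and San Quintin -0.34). Punta Prieta agria flies differed from their mean at that step by -0.57 ± 0.13 (SE, limma adjusted p = 0.0185).

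The 2 largest called falls at 9 h without overlap were smaller than these rises. FBtr0166287 had levels of 10.98, 11.28, 10.78 and 11.08 at 0 h, 9.94, 9.67, 9.72 and 9.97 at 9 h, and 10.46, 10.26, 10.63, 10.06 and 10.26 at 18 h. The 9 h arrays lay below all others and the 18 h arrays between, and the log2 change at 9 h over 0 h was -1.21 ± 0.18 (SE, limma adjusted p = 3.98e-06). FBtr0171834 had 11.01, 11.21, 11.09 and 10.79 at 0 h, 10.07, 9.72, 10.00 and 10.14 at 9 h, and 10.13, 10.08, 9.44, 9.47 and 9.93 at 18 h. The 0 h arrays lay above all later ones, which overlapped each other, and the change at 9 h over 0 h was -1.05 ± 0.17 (SE, limma adjusted p = 1.93e-05).

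Between 9 h and 18 h more of the called transcripts fell than rose on the deposited scale, but not with arrays centred on their medians. Limma called 829 at 18 h over 9 h (5.71%), with 255 higher (1.76%) and 574 lower (3.95%). Changes of 1.5-fold or more numbered 281, 100 upward and 181 downward, and those of 2-fold or more numbered 87, 27 upward and 60 downward. With arrays centred on their medians the split was 444 higher and 395 lower, and with quantile normalization 373 and 445. The count also rested on single arrays, being 443 without replicate 2 at 18 h, 481 without replicate 3 at 9 h, 517 without replicate 4 at 9 h and 1267 without replicate 1 at 9 h. It was 201 with the spread of the 13 arrays alone, 3072 with the component covariate and 5728 with array weights. The 9 h over 0 h, 18 h over 9 h and 18 h over 0 h comparisons share their arrays in pairs.

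The other named fall at this step, beside FBtr0162063, was that of FBtr0167058. It had levels of 13.71, 13.87, 13.98 and 13.69 at 0 h, 13.94, 13.80, 13.98 and 13.61 at 9 h, and 9.08, 8.26, 10.41, 12.89 and 11.99 at 18 h. The 18 h arrays did not overlap the 9 h arrays, but they spread over more than 4 log2 units, with replicates 4 and 5 nearest the earlier times. The log2 change at 18 h over 9 h was -3.31 ± 0.54 (SE, limma adjusted p = 7.34e-06).

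The largest rises at this step were those of FBtr0163647 and FBtr0165289. FBtr0163647 had levels of 10.55, 9.42, 10.80 and 10.52 at 0 h, 10.47, 8.99, 10.28 and 9.20 at 9 h, and 12.20, 12.81, 12.51, 10.87 and 11.21 at 18 h. FBtr0165289 had 8.52, 8.87, 9.46 and 8.89 at 0 h, 8.63, 7.95, 9.04 and 8.36 at 9 h, and 10.86, 11.40, 11.34, 9.25 and 10.06 at 18 h. In both, the 0 h and 9 h arrays overlapped, all 18 h arrays lay above all 9 h arrays, and replicates 4 and 5 were the lowest of the 18 h arrays. The log2 changes at 18 h over 9 h were 2.18 ± 0.55 for FBtr0163647 (SE, limma adjusted p = 0.00664) and 2.09 ± 0.51 for FBtr0165289 (adjusted p = 0.00532). In the Punta Onah flies on agria the same step was 3.79 ± 0.58 and 3.73 ± 0.54. It followed a fall at 9 h over 0 h of -2.70 ± 0.58 and -3.71 ± 0.54. In Punta Prieta agria flies the 9 h over 0 h changes, -0.59 ± 0.58 and -0.44 ± 0.54, did not pass the threshold. In agria flies of Organ Pipe National Monument neither did (-1.29 and -0.85, limma adjusted p = 0.0617 and 0.187). In San Quintin only that of FBtr0165289 was called (-1.96, adjusted p = 0.0429, against 0.595 for FBtr0163647). Punta Prieta differed from the mean of the other agria populations by 1.08 ± 0.67 and 1.73 ± 0.63 at 9 h over 0 h. These differences did not pass the threshold (limma adjusted p = 0.254 and 0.0815). In Punta Prieta flies raised on organ pipe medium both falls were called (-2.09 ± 0.58 and -2.34 ± 0.54, limma adjusted p = 0.0366 and 0.00631). Replicates 3 and 4 were the highest of the 0 h arrays there (13.86 and 13.06 for FBtr0163647, 13.05 and 12.4 for FBtr0165289). The difference between the diets at that step did not pass the threshold (limma adjusted p = 0.858 for both).

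**Figure D3:**
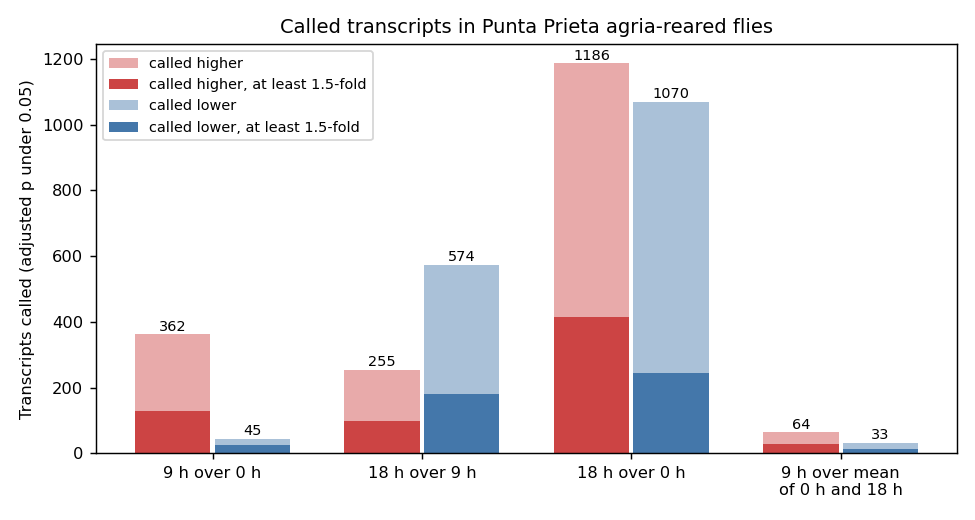
Number of transcripts called by limma at an adjusted p under 0.05 (y axis) in 4 comparisons of times (x axis), higher in red and lower in blue, with the part changed at least 1.5-fold in the darker shade. The 9 h over 0 h calls are 362 higher and 45 lower, those at 18 h over 9 h are 255 and 574, and those at 18 h over 0 h are 1186 and 1070.

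A level at 9 h that stood apart from the mean of both ends of the course was called by limma for 97 transcripts (0.668%), 64 higher (0.441%) and 33 lower (0.227%), and for 23 of them all 9 h arrays lay beyond all arrays of both other times, against 53 of all 14528. With arrays centred on their medians the split was 52 higher and 44 lower. The count ran up to 157 without replicate 2 at 0 h and 160 without replicate 1 at 18 h. It ran down to 57, 63 and 58 without replicate 2, 3 or 4 at 9 h, and was 12 with the spread taken from the 13 arrays alone, 1670 with the component covariate and 3959 with array weights.

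FBtr0169175 was the clearest dip: it had levels of 12.92, 12.73, 12.72 and 12.54 at 0 h, 12.16, 11.46, 11.30 and 11.94 at 9 h, and 13.90, 14.15, 13.86, 13.29 and 13.36 at 18 h. No times overlapped, with 9 h lowest and 18 h highest, and 9 h lay -1.50 ± 0.18 from the mean of both ends (SE, limma adjusted p = 2.45e-08). The other named dip was FBtr0166287, described above (-0.86 ± 0.15, adjusted p = 0.000289).

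The 2 transcripts with the highest relative level at 9 h among those without overlap changed at 9 h over 0 h by amounts that did not pass the threshold. FBtr0162063, whose 0 h and 9 h arrays overlapped, had a higher relative level (1.90 ± 0.41, SE, limma adjusted p = 0.00446). FBtr0172526 had levels of 14.43, 14.40, 14.38 and 14.16 at 0 h, 14.55, 14.55, 14.59 and 14.57 at 9 h, and 11.14, 9.67, 11.48, 13.02 and 12.52 at 18 h. FBtr0162212 had 10.82, 11.04, 11.10 and 11.07 at 0 h, 11.45, 11.52, 11.13 and 11.13 at 9 h, and 8.98, 8.57, 8.90, 8.72 and 9.13 at 18 h. In both, the 9 h arrays lay just above the 0 h arrays and the drop came at 18 h. Against the mean of both ends, the 9 h level was 1.61 ± 0.40 higher for FBtr0172526 (SE, limma adjusted p = 0.0277) and 1.37 ± 0.22 higher for FBtr0162212 (adjusted p = 4.62e-05). At 9 h over 0 h the changes were only 0.22 ± 0.47 (adjusted p = 0.883) and 0.30 ± 0.26 (adjusted p = 0.714). The call for FBtr0172526 was lost without replicate 4 at 0 h, without any 1 of the 9 h arrays or without replicate 2 at 18 h (adjusted p = 0.0555 to 0.117), and with the spread of the 13 arrays alone (adjusted p = 0.399).

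Flies of the same population raised on organ pipe cactus share no array with the agria flies, and nearly all the called transcripts had a change of the same sign in them. Of the 1186 transcripts called higher at 18 h over 0 h on agria, 1173 (98.9%) had a higher mean at 18 h on organ pipe medium too, against 38.5% of all transcripts. Limma called 667 of them higher there, which is 56.2% of the agria list and 86.7% of the 769 (5.29%) called higher on organ pipe. Of the 1070 called lower on agria, 1052 (98.3%) were lower on organ pipe, against 61.5% of all transcripts. Limma called 455 of them lower there, 42.5% of the agria list and 60.3% of the 754 (5.19%) called lower on organ pipe. None was called in the opposite direction. Across all 14528 transcripts, which are not independent of each other, the 18 h over 0 h changes on the 2 diets correlated at r = 0.812.

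For the shorter steps the overlap was counted in the same way. Of the 362 transcripts called higher at 9 h over 0 h on agria, 357 (98.6%) were higher on organ pipe medium, against 47.3% of all transcripts. Limma called 80 of them there, 22.1% of the agria list and 44.9% of the 178 (1.23%) called on organ pipe. Of the 574 called lower at 18 h over 9 h on agria, 565 (98.4%) were lower on organ pipe, against 62.7% of all transcripts. There 145 were called, 25.3% of the agria list and 82.9% of the 175 (1.20%) called on organ pipe. Of the 45 called lower at 9 h over 0 h on agria, 43 (95.6%) were lower on organ pipe, against 52.7% of all. Limma called 14 of them there, 31.1% of the agria list and 20% of the 70 (0.482%) called on organ pipe. Of the 255 called higher at 18 h over 9 h on agria, 250 (98%) were higher on organ pipe, against 37.3% of all. Limma called 78 of them there, 30.6% of the agria list and 78.8% of the 99 (0.681%) called on organ pipe. Across transcripts the changes on the 2 diets correlated at r = 0.284 for 9 h over 0 h and 0.612 for 18 h over 9 h.

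**Figure D4:**
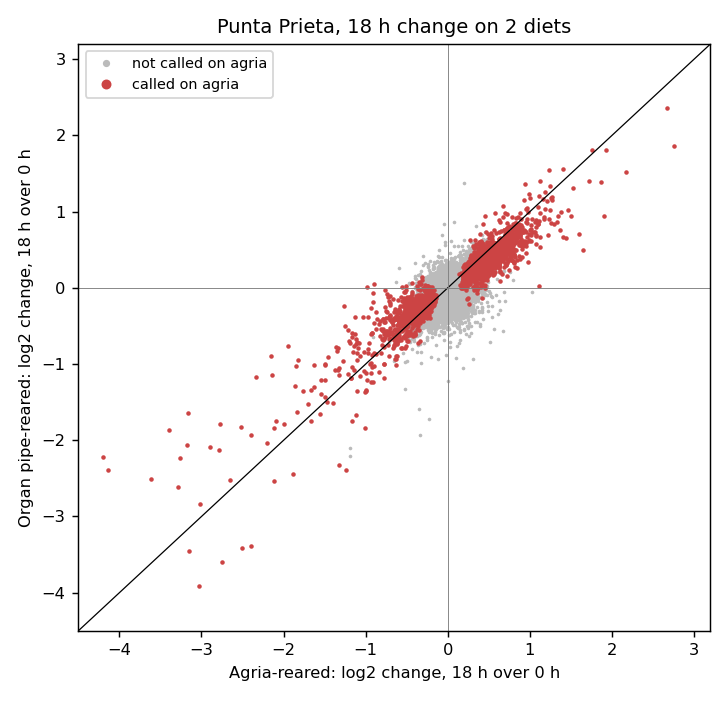
Log2 change at 18 h over 0 h in Punta Prieta flies raised on agria (x axis) and on organ pipe medium (y axis), 1 point per transcript, with transcripts called on agria in red and the line of equal change. Nearly all points called on agria lie in the quadrants of equal sign.

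The difference between the diets in the response was itself tested. By limma, 0 of 14528 transcripts (0%) had a change on agria that differed from that on organ pipe at 9 h over 0 h, at 18 h over 0 h or at 18 h over 9 h. The zero at 9 h over 0 h depended on the fit: array weights gave 281 there, 0 at 18 h over 0 h and 0 at 18 h over 9 h. The component covariate, which narrows the spread by construction, gave 339 at 9 h over 0 h. It gave 0 at 18 h over 0 h and 198 at 18 h over 9 h. The smallest adjusted p values were 0.0638, 0.718 and 0.971, and 612, 325 and 316 transcripts had an unadjusted p under 0.05. The unadjusted 95% interval of such a difference reached 0.398, 0.388 and 0.388 to either side in the median transcript. Calls rest on p-values adjusted over all transcripts, so with this number of arrays differences larger than these could also go uncalled. At 9 h over 0 h the difference for FBtr0172291 was 2.75 ± 0.66 and was not called (limma adjusted p = 0.311). For 9 h over 0 h, limma called 1 transcript, FBtr0166212, without replicate 1 or replicate 3 at 0 h (adjusted p = 0.0106 and 0.00381). It is named because its values were seen.

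Levels on the 2 diets were compared at each time. At 9 h and at 18 h limma called 0 transcripts (0%) between agria and organ pipe flies, with smallest adjusted p values of 0.78 and 0.357 and 394 and 391 transcripts at an unadjusted p under 0.05. The 95% interval of the difference reached 0.281 and 0.267 to either side in the median transcript. These zeros also depended on the fit: array weights gave 2666 at 9 h and 0 at 18 h. The component covariate, which narrows the spread by construction, gave 3 and 32. At 18 h, 1 transcript was called without replicate 1 of the agria flies (FBtr0169905, adjusted p = 0.0438). It, too, is named after its values were seen. At 0 h limma called 9 transcripts (0.0619%), 7 higher (0.0482%) and 2 lower (0.0138%) on agria, and for none of them did the arrays of the diets keep apart, as they did for 182 of all 14528. The count was 226 with the component covariate and 50 with array weights.

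Among the 9 were FBtr0162063 and FBtr0175295, both described above. At 0 h FBtr0162063 had levels of 12.16, 12.53, 12.46 and 12.35 on agria, against 12.19, 12.22, 8.60 and 7.81 on organ pipe medium. The first 2 organ pipe arrays had the agria level and the others, replicates 3 and 4, lay more than 3 log2 units below. The log2 difference, agria over organ pipe, was 2.17 ± 0.48 (SE, limma adjusted p = 0.0387). FBtr0175295 had 9.09 to 9.88 on agria, against 10.24, 9.41, 11.44 and 11.26 on organ pipe medium, a difference of -1.09 ± 0.23 (SE, limma adjusted p = 0.0352), and here too organ pipe replicates 3 and 4 lay farthest from the agria arrays. With these 2 organ pipe arrays left out, limma called 0 transcripts between the diets at 0 h. Only 2 organ pipe arrays then remained at 0 h, so an effect of their values cannot be told apart from that of fewer arrays. The count was also 0 without agria replicate 4 at 0 h, 1 without replicate 3, 2 without replicate 2 and 17 without replicate 1.

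Set against the mean of the other 3 populations on the same cactus, the response of Punta Prieta flies differed for part of the transcripts. By limma, the change at 9 h over 0 h differed from the mean change of the others for 454 transcripts (3.12%), 314 (2.16%) with a more positive and 140 (0.964%) with a more negative change. With arrays centred on their medians the split was turned, 198 and 276, and with quantile normalization it was 318 and 212. The count swung with single arrays: it was 254, 3247, 259 and 151 without replicates 1 to 4 at 0 h in turn, and 2281, 179 and 125 without replicates 1, 3 and 4 at 9 h. It was 99, 49 up and 50 down, with Punta Onah and San Quintin as the only other populations, an alternative chosen after seeing the data. The component covariate gave 4877 and array weights gave 6591. The mean of the others gives each population the same weight, and their own 9 h over 0 h changes were unlike. Limma called 6355 of 14528 transcripts at that step in agria flies of Organ Pipe National Monument, against 306 in Punta Onah and 452 in San Quintin.

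At 18 h over 0 h the difference was called by limma for 282 transcripts (1.94%), of which 239 (1.65%) had a more negative change in Punta Prieta flies and 43 (0.296%) a more positive one. Leaving out 1 array gave counts of 187 (without replicate 2 at 0 h) to 308, and the comparison with Punta Onah and San Quintin alone gave 177, 155 of them more negative. The count was 824 with array weights and 1719 with the component covariate. For 18 h over 9 h there were 31 (0.213%), all with a more negative change in Punta Prieta flies. Their number was 15 without replicate 2 at 9 h, 71 without replicate 1 at 18 h, and 1 against Punta Onah and San Quintin alone. The component covariate gave 1320, of which 815 were more positive, and array weights gave 2618, of which 1141 were more positive.

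Across all transcripts, the 18 h over 0 h change of the Punta Prieta agria flies correlated with that of San Quintin at r = 0.714, of Punta Onah at 0.496 and of Organ Pipe National Monument at 0.495. Of the 1186 transcripts called higher in Punta Prieta, limma called 860 higher in San Quintin, 72.5% of the Punta Prieta list and 63.8% of the 1349 (9.29%) called higher there. In Punta Onah it called 669 of them, 56.4% of the list and 23.9% of the 2796 (19.2%) called higher there, and in Organ Pipe National Monument 808, 68.1% of the list and 39.4% of 2051 (14.1%). Of the 1070 called lower, 434, 628 and 661 were called lower in San Quintin, in Punta Onah and at Organ Pipe National Monument, where 5.95%, 21.1% and 23.8% of all transcripts were called lower. These are 40.6%, 58.7% and 61.8% of the Punta Prieta list and 50.2%, 20.5% and 19.1% of the lists there, and 12, 24 and 40 of the 1070 were called higher. The 9 h over 0 h changes were far less alike, with r = 0.153 for San Quintin, -0.02 for Punta Onah and -0.39 for Organ Pipe National Monument.

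For several of the named transcripts, the 0 h mean of Punta Prieta agria flies lay outside the range of the other populations' means. For others, FBtr0175044, FBtr0169175 and FBtr0172291 among them, it lay inside that range. Levels at 0 h were not tested between populations on their own. FBtr0162063 averaged 12.37 ± 0.16 at 0 h, 12.18 ± 0.20 at 9 h and 8.18 ± 0.79 at 18 h in them (SD, n = 4, 4 and 5). In San Quintin it averaged 7.69 ± 0.36, 11.28 ± 0.76 and 7.11 ± 0.46, in Punta Onah 7.65 ± 0.28, 8.86 ± 0.51 and 7.72 ± 0.29, and at Organ Pipe National Monument 7.63 ± 0.09, 7.83 ± 0.16 and 7.57 ± 0.28. Here and below, means of these 3 populations are with their SD over 4 arrays, except 3 arrays for San Quintin at 9 h and 5 for Organ Pipe National Monument at 18 h. By 18 h all 4 populations were within about 1 log2 unit, and in Punta Prieta and San Quintin it was high at 9 h, but in Punta Prieta alone among these 4 agria groups it was already high at 0 h. Its 18 h over 0 h change differed from that of the others by -4.01 ± 0.53 (SE, limma adjusted p = 8.24e-08), and its 9 h over 0 h change by -1.86 ± 0.56 (adjusted p = 0.0463). The call at 9 h was lost without replicate 1, 3 or 4 at 0 h, without replicate 2, 3 or 4 at 9 h and with quantile normalization (adjusted p = 0.0514 to 0.129).

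FBtr0161675 averaged 13.01 ± 0.39 at 0 h, 11.77 ± 0.32 at 9 h and 8.87 ± 0.18 at 18 h in Punta Prieta agria flies. At the same times it averaged 9.64 ± 0.41, 10.24 ± 1.30 and 8.36 ± 0.28 in San Quintin, 10.19 ± 0.45, 8.68 ± 0.30 and 8.95 ± 0.16 in Punta Onah, and 8.53 ± 0.24, 8.94 ± 0.38 and 8.81 ± 0.19 at Organ Pipe National Monument. The 18 h means lay close together and the 0 h means did not, and the change at 18 h over 0 h differed by -3.40 ± 0.51 (SE, limma adjusted p = 2.33e-06).

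FBtr0175295 showed the opposite order. It averaged 9.50 ± 0.37 at 0 h, 11.71 ± 0.15 at 9 h and 11.40 ± 0.31 at 18 h in Punta Prieta agria flies. Its means at these times were 11.13 ± 0.12, 11.63 ± 0.08 and 11.83 ± 0.05 in San Quintin, 11.43 ± 0.26, 11.44 ± 0.14 and 11.56 ± 0.17 in Punta Onah, and 10.85 ± 0.23, 10.60 ± 0.50 and 11.28 ± 0.26 at Organ Pipe National Monument. Punta Prieta had the lowest of the 4 means at 0 h and not at 9 h or 18 h. Its change differed from that of the others by 2.13 ± 0.27 at 9 h over 0 h (SE, limma adjusted p = 3.13e-07) and by 1.49 ± 0.26 at 18 h over 0 h (adjusted p = 5.39e-05). FBtr0165571, also lowest in Punta Prieta at 0 h (7.99 ± 0.18, against 9.03 ± 0.06 in San Quintin, 9.51 ± 0.28 in Punta Onah and 8.75 ± 0.38 at Organ Pipe National Monument), differed by 1.41 ± 0.39 at 18 h over 0 h (adjusted p = 0.034), and that call was lost on leaving out any 1 array at 0 h or replicate 1, 2 or 3 at 18 h (adjusted p = 0.0507 to 0.12).

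**Figure D5:**
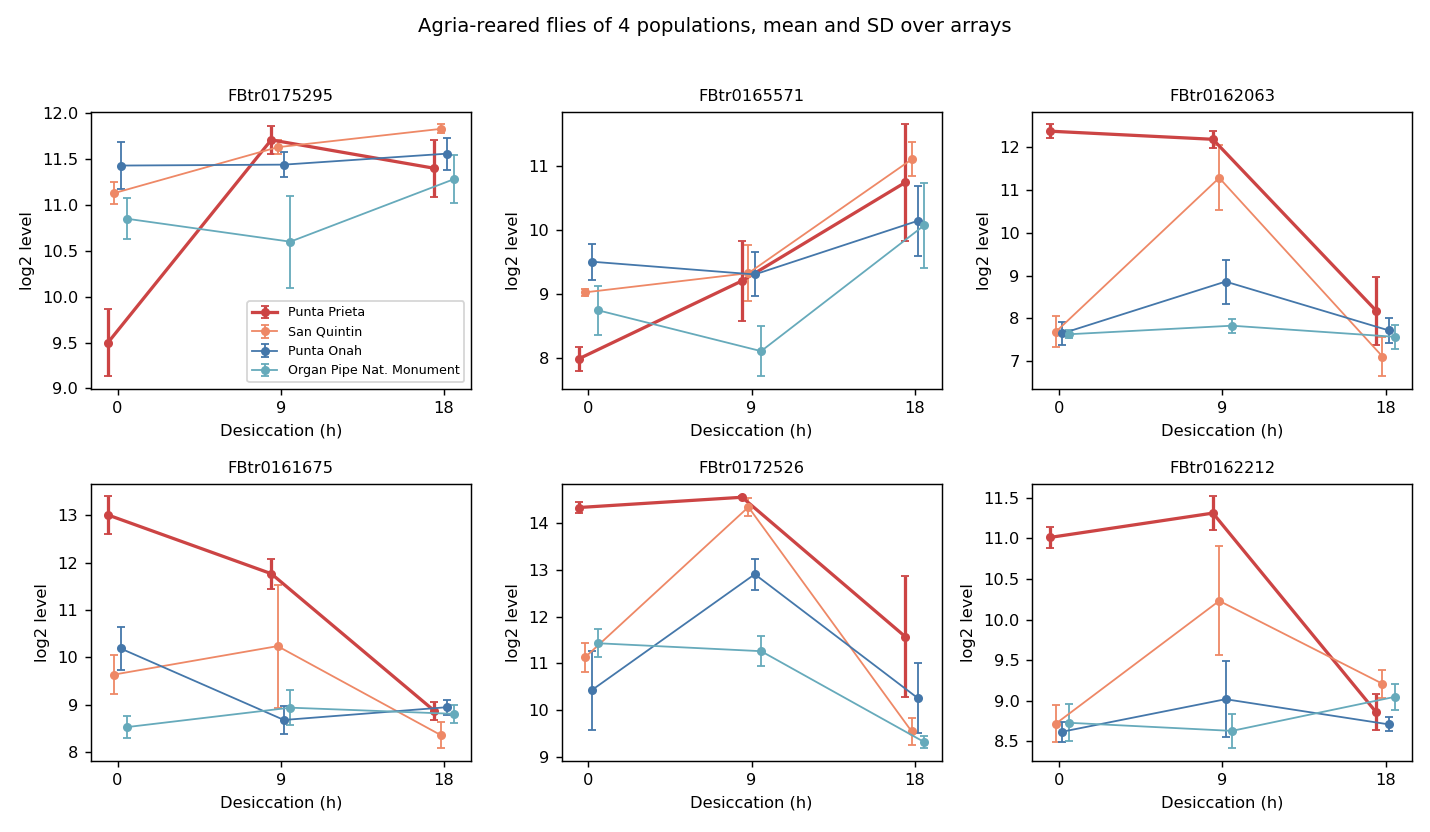
Mean log2 level (y axis, bars are SD over 3 to 5 arrays) of 6 transcripts by hours of desiccation (x axis) in agria flies of Punta Prieta, San Quintin, Punta Onah and Organ Pipe National Monument. FBtr0162063, FBtr0161675, FBtr0172526 and FBtr0162212 are higher in Punta Prieta than in the other populations at 0 h and FBtr0175295 and FBtr0165571 are lower, and in all 6 the Punta Prieta mean lies nearer the others at 18 h. FBtr0162063, FBtr0161675, FBtr0175295 and FBtr0165571 were chosen for a called difference in the 18 h over 0 h change, which uses these 0 h levels. FBtr0172526 and FBtr0162212 were added from the named transcripts, so the 6 do not stand for all transcripts.

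The remaining named differences at 9 h over 0 h were those of FBtr0172291 and FBtr0172171. FBtr0172291 averaged 7.82 ± 0.93 at 9 h, against 7.53 ± 0.90 at 0 h, in Punta Prieta agria flies, and its change did not pass the threshold there (0.29 ± 0.47, limma adjusted p = 0.839). In San Quintin it averaged 6.86 ± 0.26 at 9 h, against 10.14 ± 0.13 at 0 h, and in Punta Onah 6.85 ± 0.80 at 9 h, against 10.45 ± 0.28 at 0 h. At Organ Pipe National Monument it averaged 6.23 ± 0.41 at 9 h, against 7.25 ± 0.64 at 0 h. The 0 h mean of Punta Prieta thus lay near that of Organ Pipe National Monument and below the others. The change at 9 h over 0 h was -1.02 ± 0.47 in the agria flies of Organ Pipe National Monument, where it was not called (limma adjusted p = 0.0673), and the response of Punta Prieta agria flies differed from the mean of the others by 2.93 ± 0.54 (SE, limma adjusted p = 0.000841). In Punta Prieta flies raised on organ pipe medium it was called lower at 9 h over 0 h (-2.46 ± 0.47, limma adjusted p = 0.000427), and the difference between the diets did not pass the threshold (2.75 ± 0.66, adjusted p = 0.311). Its organ pipe levels at 0 h were 8.10, 7.85, 10.22 and 10.93. Replicates 1 and 2 lay within the agria range at 0 h (6.66 to 8.62). Replicates 3 and 4, whose profiles differed from theirs, lay above it. FBtr0172171 averaged 13.66 ± 0.05 at 9 h, against 13.86 ± 0.05 at 0 h, and its 9 h over 0 h change differed by -1.46 ± 0.34 from that of the others (SE, limma adjusted p = 0.0116), among which it rose by 1.99 ± 0.32 in San Quintin and 1.51 ± 0.29 in Punta Onah. At Organ Pipe National Monument its change was 0.28 ± 0.29 and did not pass the threshold (limma adjusted p = 0.443). Its 0 h mean was lower in the other agria flies, 11.74 ± 0.26 in San Quintin, 11.37 ± 0.48 in Punta Onah and 11.95 ± 0.14 at Organ Pipe National Monument. At 18 h it averaged 12.24 ± 0.53 in Punta Prieta, against 10.91 ± 0.26, 11.52 ± 0.30 and 11.17 ± 0.36 in the same order.

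FBtr0166500 and FBtr0166499 carried the largest differences at 18 h over 9 h. FBtr0166500 had levels of 13.15, 14.23, 13.19 and 13.99 at 0 h, 13.19, 13.48, 13.75 and 11.94 at 9 h, and 11.23, 10.59, 13.20, 11.18 and 12.61 at 18 h in Punta Prieta agria flies. The 9 h and 18 h ranges overlapped, and its own change at that step was -1.33 ± 0.56 (SE, limma adjusted p = 0.148). The step was called higher in agria flies of Punta Onah (2.34 ± 0.59) and Organ Pipe National Monument (3.59 ± 0.56) and was 1.86 ± 0.64 in San Quintin, where it did not pass the threshold (limma adjusted p = 0.0759), and the difference was -3.92 ± 0.65 (SE, limma adjusted p = 0.000323). FBtr0166499 differed likewise, by -3.31 ± 0.60 (SE, limma adjusted p = 0.00103), with a change of -1.40 ± 0.51 in Punta Prieta. Without Organ Pipe National Monument neither difference passed the threshold (adjusted p = 0.0632 and 0.0641). At 9 h FBtr0166500 averaged 13.09 ± 0.80 in Punta Prieta flies raised on agria, against 10.80 ± 1.55 in those raised on organ pipe medium, a difference that was not called.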

How the data were processed

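The deposited log2 table covers 14528 transcripts on 95 arrays, whereas the design text states 15528 transcripts. Per the submitters' processing notes the log2 values were made by the authors with RMA (robust multi-array average), whose version is not given in the sources used here. All 95 columns were matched to samples by label and 0 were left over. None of the identifiers (0 of 14528) occurs in the reference table of 15130 genes, so planned gene lists could not be used. Stock numbers in the labels run on by 1 per array and were not used.

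A limma fit (limma 3.58.1, R 4.3.3) of 24 group means over the 95 arrays had 71 residual degrees of freedom, with no covariate, block or filter. There were 13 comparisons, each 2-sided and adjusted by Benjamini-Hochberg over 14528 transcripts, with calls at an adjusted p under 0.05. The fit was tested on simulated data with known changes. Their noise was independent between transcripts, so that test did not cover shifts shared by many transcripts of an array. Array spread was compared by exact permutation (scipy 1.17.1). Named transcripts are the 2 largest rises and 2 largest falls per comparison among called transcripts whose arrays do not overlap (for differences between responses, among called ones). The members, rule and comparisons were chosen with earlier results of these data known. Alternatives changed the scaling, spread, covariate, weights, filter, block and arrays. The number of arrays limits the precision.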

Additional observations from a re-analysis of the deposited data

Results flagged for a closer look

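In 10 cases a named transcript changed differently in Punta Prieta agria flies than in the mean of the other 3 populations on agria, by limma's test of the difference (adjusted p from 5.39e-05 to 0.0463 unless given). At 9 h over 0 h the differences were 2.93 for FBtr0172291 (adjusted p = 0.000841), 2.13 for FBtr0175295 (adjusted p = 3.13e-07), -1.86 for FBtr0162063 and -1.46 for FBtr0172171. At 18 h over 0 h they were 1.49 for FBtr0175295, 1.41 for FBtr0165571, -4.01 for FBtr0162063 (adjusted p = 8.24e-08) and -3.40 for FBtr0161675 (adjusted p = 2.33e-06). At 18 h over 9 h they were -3.92 for FBtr0166500 and -3.31 for FBtr0166499. Over all transcripts, 454, 282 and 31 passed the same test in the 3 comparisons.

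One array lay far from the rest of its group for a named transcript. FBtr0172171 had 13.78 in replicate 4 at 0 h, against 13.88 to 13.90 in the other 3 arrays, a gap larger than Dixon's 95% value. In 63 groups tested this was the 1 case, and chance alone gives about 5% of groups.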

How the results depend on the processing

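Of 597 checks of named transcripts under alternatives, 570 kept direction and call, 27 kept the direction and lost the call, and 0 reversed; of 322 checks of counts and array spread, 251 stayed within 1.5 times or 1 SD. The counts of calls are named below in the order of the report, and unless a value shows it the cause was not tested. With the spread estimated from the 13 arrays alone (fewer arrays behind the spread), 9 h over 0 h gave 20, 18 h over 9 h 201, 18 h over 0 h 985 and 9 h over both ends 12. The first within-group component (41.8% of the within-group variance) is taken from the same deviations that make up the spread. As a covariate it narrows the spread by construction and leaves the mean changes as they were. With it these counts were 1536 for 9 h over 0 h, 3072 for 18 h over 9 h and 1670 for 9 h over both ends. The count for 18 h over 0 h, given above, rose too but stayed within 1.5 times. The difference between diets in the response was then 339 at 9 h over 0 h and 198 at 18 h over 9 h, and that from the other populations 4877 at 9 h, 1719 at 18 h and 1320 at 18 h over 9 h. The diets then differed for 226, 3 and 32 transcripts at 0, 9 and 18 h. With array weights the 4 time counts were 1840, 5728, 4092 and 3959, the diet difference at 9 h over 0 h 281, the differences from other populations 6591, 824 and 2618, and the diets differed for 50 at 0 h and 2666 at 9 h. Median centring gave 20 for the population difference at 18 h over 9 h. A trended, robust spread, or leaving out the dimmest 20%, gave 1 for the diet difference at 9 h over 0 h (FBtr0166212), and that filter gave 14 for the diets at 0 h. Without the 4 arrays of the second order, 9 h over 0 h gave 110, the population difference at 9 h 116 and the diets at 0 h 0. Without Punta Prieta organ pipe replicates 3 and 4 at 0 h, the diets gave 0 at 0 h and 1 at 9 h (FBtr0162270). Without Organ Pipe National Monument, chosen after seeing the data, the population differences were 99, 177 and 1.

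Leaving out 1 of the 13 arrays at a time gave 112 to 598 for 9 h over 0 h, 443 to 1267 for 18 h over 9 h, 1606 to 2602 for 18 h over 0 h and 57 to 160 for 9 h over both ends. The diet difference ran from 0 to 1 at 9 h over 0 h and was 0 in the other 2, and the population difference ran from 125 to 3247, 187 to 308 and 15 to 71. The diets differed for 0 to 17, 0 and 0 to 1 transcripts at 0, 9 and 18 h. Array spread differed by -0.00104 to 0.0567 (9 h minus 0 h), -0.0539 to -0.00448 (18 h minus 9 h) and -0.0299 to 0.0234 (18 h minus 0 h).

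Same-numbered replicates showed no clear pairing: their deviations from the group means correlated at -0.71 to 0.52 over 12 pairs, and an array was nearest its own number in 8 of 24 comparisons. Whether that number exceeds chance was not tested. With the replicate block in the fit, the population difference at 18 h gave 181, and the diets differed for 41, 21 and 43 transcripts at 0, 9 and 18 h. The block moved no other count by over 1.5 times.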
